A study of Mus musculus with 32 samples.

Results

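The nuclear-encoded mitochondrial respiratory chain was followed through the brain stem of mice with and without the cholecystokinin B receptor, Cckbr. Members were the array's probe sets with 1 annotated gene symbol beginning with Nduf (complex I), Sdha, Sdhb, Sdhc or Sdhd (II), Uqcr (III), Cox4 to Cox8 (IV) or Atp5 (V). This rule gave 87 of the 12393 genes that have a probe set with 1 symbol, and 160 of the table's 22690 probe sets. Complex I had 74 probe sets for 39 genes, complex II 11 for 7, complex III 15 for 8, complex IV 32 for 16 and complex V 28 for 17. The prefixes also took in 10 probe sets of 8 assembly factors (Ndufaf and Sdhaf genes), and 8 probe sets that carried several symbols were left out. No filter on low values was applied, so every member was tested. Symbols are those of the array's annotation, and Ndufa4, a Nduf gene by name, encodes a protein now assigned to complex IV.

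The respiratory chain is the set of inner-membrane complexes that turns electrons from food into ATP. Complex I takes electrons from NADH and complex II takes them from succinate, both hand them through ubiquinone to complex III, and complex IV passes them from cytochrome c to oxygen. Complexes I, III and IV pump protons, and complex V, the ATP synthase, lets protons flow back to make ATP. Neurons depend on this pathway for the ion pumping that firing and synaptic transmission require, and the genes studied here are nuclear, because the catalytic core subunits encoded in mitochondrial DNA fall outside the rule.

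Each group comprised 4 arrays, each from its own animal according to the series design. The groups were KO CCI, KO sham, control CCI and control sham mice, each sampled in midbrain and in medulla, which gave 8 groups and 32 arrays from 16 animals. KO mice lack Cckbr, and in CCI mice the chronic constriction injury, loose ligatures around the sciatic nerve that serve as a model of neuropathic pain, had been made, so that every animal had undergone an operation. Strain, sex, age and the time from operation to sampling are not given in the sources used here. Every value below is a deposited intensity on a linear scale, or a log2 difference of log2(intensity + 16) after quantile normalization, a scale that understates the change of dim genes. A member was called at an adjusted p under 0.05, from limma's moderated test with Benjamini-Hochberg adjustment over all 22626 probe sets that are not array controls.

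The labels held where they could be checked. The brighter Cckbr probe set read -1.49 to 24.1 on the KO arrays, against 122 to 200 on the control arrays. The dimmer one read -15.8 to 19.9 against 13.3 to 42.5 in the same order, with overlap. The regions separated clearly: 5 of 6 midbrain markers were higher in midbrain, led by the dopamine transporter Slc6a3, and all 9 hindbrain Hox genes were lower there. The summed midbrain markers read 1075 to 1514 in midbrain against 154 to 313 in medulla. The summed Hox genes read 117 to 241 in midbrain against 1077 to 2358 in medulla, and so varied between medulla arrays. They were lowest on control sham replicate 3 (1077), control CCI replicate 3 (1126) and KO sham replicate 4 (1158) of the medulla. The midbrain markers there summed to 272, 313 and 201. The part of this variation in the region differences was not tested. Array medians lay between 91.01 and 99.9, arrays of a group correlated at 0.962 to 0.989 across probe sets, and no pair of arrays was identical. In KO sham mice, 1 medulla array stood apart, replicate 3. On it the members' median lay 0.14 log2 units below their mean over all medulla arrays, with 127 of 160 probe sets below. The array numbers of the descriptions place it with KO sham midbrain replicate 4 in the same animal. The title numbers do not: for replicates 3 and 4 of KO sham mice the 2 numberings disagree, and counts of animals below follow the array numbers. On KO sham midbrain replicate 2 the 3' to 5' ratio of the Actb control probe sets, a sign of RNA integrity, was 1.59 on the log2 scale, against 0.36 to 0.77 on the other arrays.

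Promoters are shown for 5 members of the contrast between regions described next, because several of the factors that are known to act on respiratory chain genes have recognisable sites there. NRF1 and the ETS factor GABP bind many nuclear genes of mitochondrial proteins, the estrogen-related receptors (ERR) bind them together with the coactivator PGC-1alpha, and YY1 and CCAAT-box factors bind many promoters. Sequences are from RefSeq on build GRCm38.p6, 300 bases each, from 250 before to 50 after the annotated start, and 73 of the 87 genes had at least 1 entry (78 promoters). Capitals mark matches, on either strand, to GCGC, any 2 bases and GCGC again (loose NRF1 site), CCGGAAG (ETS), TNAAGGTCA (ERR), AAGATGGC (YY1) or CCAAT. Atp5g1 had the smallest p of all members, Atp5g3 and Sdhd were the only members in the table with an ERR match, and Cox7a1 and Cox8b are muscle isoforms called lower. Cox6a2, the muscle isoform called higher, was named without a sequence.
Atp5g1 promoter, chr11:96075582-96075881, minus strand, subunit c of ATP synthase: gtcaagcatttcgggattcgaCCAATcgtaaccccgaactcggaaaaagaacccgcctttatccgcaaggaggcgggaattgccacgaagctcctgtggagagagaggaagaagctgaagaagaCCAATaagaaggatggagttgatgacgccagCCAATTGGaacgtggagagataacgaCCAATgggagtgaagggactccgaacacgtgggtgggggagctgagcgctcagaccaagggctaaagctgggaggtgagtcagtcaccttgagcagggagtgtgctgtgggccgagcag
Atp5g3 promoter, chr2:73911277-73911576, minus strand, another gene of the same subunit c: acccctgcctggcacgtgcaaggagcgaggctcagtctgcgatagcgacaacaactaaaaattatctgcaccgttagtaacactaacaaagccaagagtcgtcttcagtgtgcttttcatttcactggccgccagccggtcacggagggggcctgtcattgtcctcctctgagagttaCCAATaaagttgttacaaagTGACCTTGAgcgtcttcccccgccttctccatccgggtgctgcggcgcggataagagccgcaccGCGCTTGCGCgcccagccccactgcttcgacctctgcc
Sdhd promoter, chr9:50603800-50604099, minus strand, membrane anchor of complex II: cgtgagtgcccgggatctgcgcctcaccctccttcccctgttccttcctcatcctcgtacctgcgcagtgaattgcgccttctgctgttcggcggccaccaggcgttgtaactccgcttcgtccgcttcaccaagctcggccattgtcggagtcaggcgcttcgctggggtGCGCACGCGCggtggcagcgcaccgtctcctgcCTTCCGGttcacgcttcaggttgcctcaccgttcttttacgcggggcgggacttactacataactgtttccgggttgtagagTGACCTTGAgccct
Cox7a1 promoter, chr7:30183921-30184220, plus strand, muscle isoform of a complex IV subunit: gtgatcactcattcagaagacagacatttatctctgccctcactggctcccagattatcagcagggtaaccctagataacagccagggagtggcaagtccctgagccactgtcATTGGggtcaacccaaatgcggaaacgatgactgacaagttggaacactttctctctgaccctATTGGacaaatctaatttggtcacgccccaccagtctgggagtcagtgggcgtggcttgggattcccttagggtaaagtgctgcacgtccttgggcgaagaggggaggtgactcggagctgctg
Cox8b promoter, chr7:140900397-140900696, minus strand, muscle isoform of a complex IV subunit: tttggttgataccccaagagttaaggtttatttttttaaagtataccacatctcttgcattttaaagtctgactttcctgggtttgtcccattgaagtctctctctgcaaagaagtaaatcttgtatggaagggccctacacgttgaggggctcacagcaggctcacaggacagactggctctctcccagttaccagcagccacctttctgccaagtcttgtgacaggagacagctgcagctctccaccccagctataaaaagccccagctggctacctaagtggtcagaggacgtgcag

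Among these 5, Atp5g1 and Cox7a1 held CCAAT letters only, with 5 matches (2 of them overlapping, on opposite strands) and 2. Atp5g3 held 2 matches to the other motifs and 1 to CCAAT, Sdhd held 3 to the other motifs, and Cox8b held none of the letters searched. Over the members' 78 promoters the loose NRF1 site was present in 25.6%, against 6.23% of all 32851 promoters in the table. The strict NRF1 palindrome, which has AT as the central bases and is counted in the loose form too, was present in 7.69% against 0.971%. The ETS letters were found in 25.6% against 8.86%, the YY1 letters in 11.5% against 2.75%, the ERR letters in 2.56% against 1.28% and CCAAT in 38.5% against 37.4%. Split by the region result, there were 35 promoters of genes called lower in midbrain and 43 of the other member genes. In this order the loose NRF1 site stood in 20% and 30.2%, and the strict palindrome in 2.86% and 11.6% (1 and 5 promoters). The ETS letters stood in 28.6% and 23.3%, and CCAAT in 40% and 37.2%. The YY1 letters stood in 17.1% and 6.98% (6 and 3 promoters), and the ERR letters in 5.71% and 0% (2 and 0 promoters). These matches are descriptions of letters in a window and were not tested.

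Respiratory chain messages were lower in midbrain than in medulla. Of the 160 probe sets, 46 were called lower and 1 higher, and 136 had a negative log2 difference. The 46 belong to 35 genes of all 5 complexes, and the differences were small: 1.06-fold to 1.55-fold, with a median of 1.10-fold. Called lower were 28.7% of members, against 11% of all 22626 probe sets (10.5% were called higher). Because members are bright and brighter probe sets are called more often, a nearer background is the 2016 probe sets at or above the members' lower quartile of level, of which 17.1% were called lower and 18.8% higher. At that level 30.8% of members (37 of 120) were lower and 0 of the 120 were higher. The median log2 difference of the members was -0.074, against 0.0054 over all probe sets. Arrays of whole tissue cannot tell fewer cells of a type from less RNA per cell.

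**Figure D1:**
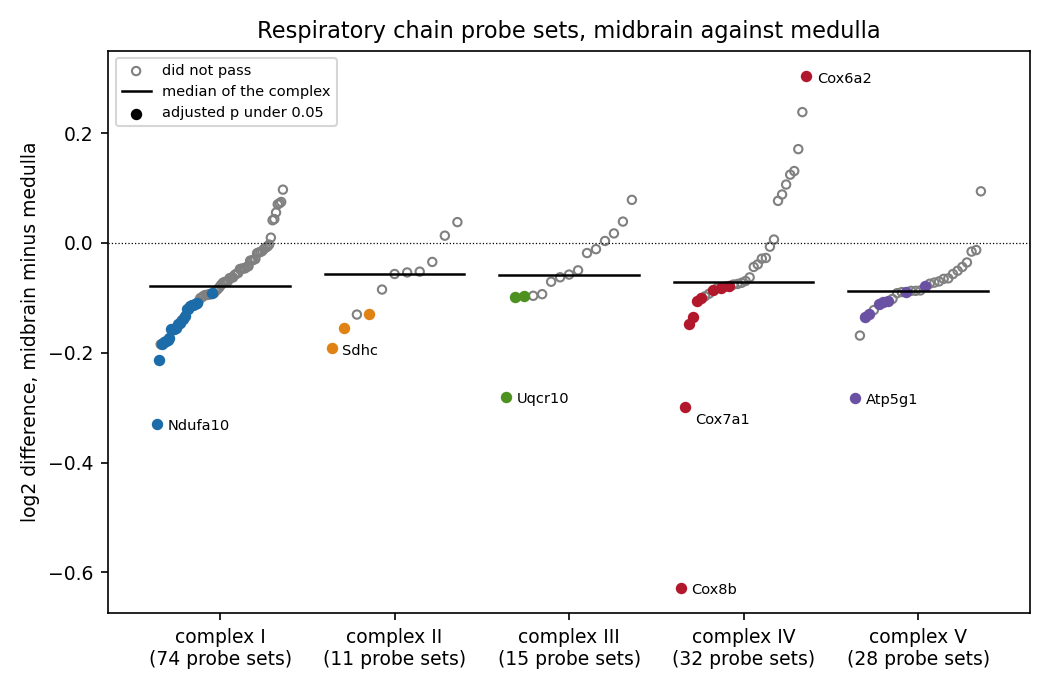
Log2 difference (vertical axis, midbrain minus medulla, 16 arrays each) of each of the 160 probe sets, ordered by value within complexes I to V (horizontal axis). Filled points passed the adjusted p of 0.05, open points did not, and bars mark the median of each complex. Most points lie below 0 in every complex, Cox8b lies lowest at -0.63, and Cox6a2 is the single filled point above 0, at 0.30.

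The median difference was negative in each complex. In complex I 23 of 74 probe sets were called lower (median log2 difference -0.079), in complex II 3 of 11 (-0.057), in complex III 3 of 15 (-0.058), in complex IV 9 of 32 (-0.071) and in complex V 8 of 28 (-0.087). These are shares of 31.1%, 27.3%, 20%, 28.1% and 28.6%, in which dim members are counted too. Of all probe sets 11% were called lower, and 17.1% of those at or above the members' lower quartile of level. The share of complex III is near the 17.1%. The called member in the other direction belongs to complex IV. Of the 46 genes with more than 1 probe set, 36 had negative differences on all of them, 8 had mixed signs, 6 had all of them called lower and 16 had some but not all called. With the brightest probe set of each gene only, 27 of 87 genes were called lower and 1 higher in the same fit. Of the 10 assembly factor probe sets 1 was called, that of Ndufaf1, a complex I assembly factor (log2 difference -0.17, SE 0.052, adjusted p = 0.0164).

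In the catalytic arm of complex I, which holds the flavin and the iron-sulfur clusters, 6 probe sets of the measured core subunits were called. Ndufv2, an iron-sulfur subunit of the NADH-binding module, was lower on 2 of 3 probe sets (-0.16, SE 0.031, adjusted p = 0.000394, and -0.13, adjusted p = 0.00298). Ndufv1, which binds NADH and flavin, was called on 1 of 3 probe sets (-0.11, adjusted p = 0.0327). Ndufs7 and Ndufs8, iron-sulfur subunits near the quinone site, were called on 1 of 2 and 2 of 6 probe sets (-0.12, adjusted p = 0.018, and -0.12 each, adjusted p = 0.0243 and 0.0393). Ndufs1 had a difference of -0.091 (adjusted p = 0.124) and Ndufs3 one of -0.063 (adjusted p = 0.153), and neither passed.

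Among accessory subunits of complex I, which surround the core and are needed for its assembly or stability, Ndufa12 was lower on 3 of its 4 probe sets. On the brightest of them the lowest, median and highest arrays read 3103, 3355 and 3533 in midbrain against 3475, 3746 and 4062 in medulla. The ranges overlapped only at their ends, and midbrain was the lower region in 16 of 16 animals (log2 difference -0.18, SE 0.029, adjusted p = 3.29e-05). The probe set that was not called was dim, at 6.58 to 34.2 in midbrain against 9.65 to 31.7 in medulla. Ndufa10, a subunit related to nucleoside kinases, had the widest change of complex I on its dimmer probe set, with 83.97, 115 and 160 in midbrain against 114, 142 and 192 in medulla. Its difference was -0.33 there (SE 0.075, adjusted p = 0.00164) and -0.16 on its brighter probe set (SE 0.048, adjusted p = 0.0192). The KO sham midbrain array with the high Actb ratio gave the 160, the highest midbrain value.

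Ndufa4 read 2310, 2715 and 3465 in midbrain against 2682, 3090 and 3757 in medulla, and was lower in 16 of 16 animals (-0.18, SE 0.041, adjusted p = 0.00153). The control sham animal of replicate 1 gave the highest array in both regions. Ndufs4, an accessory subunit whose loss in mice and humans causes a Leigh-like encephalopathy, was called on 1 of its 2 dim probe sets (-0.21, SE 0.067, adjusted p = 0.0207), while its bright one had -0.017 (adjusted p = 0.796). Ndufa3, a small subunit of the membrane arm, was called on both probe sets (-0.18 and -0.16, adjusted p = 0.00256 and 0.0122). Ndufb6 and Ndufb8, also of the membrane arm, had differences of -0.15 each (adjusted p = 0.00195 and 0.000178). Ndufa7, which was picked out after its values were seen, went the other way on all 5 of its probe sets, with differences of 0.041 to 0.075, and none of them passed (adjusted p from 0.251 to 0.609).

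In complex II, which is also an enzyme of the citric acid cycle, the called subunits were the pair of membrane anchors. Sdhc read 601, 722 and 834 in midbrain against 691, 802 and 929 in medulla on its brighter probe set. The ranges overlapped, with midbrain lower in 14 of 16 animals (-0.15, SE 0.037, adjusted p = 0.00253), and its other probe set had -0.19 (SE 0.051, adjusted p = 0.00632). Sdhd was called on its brighter probe set (-0.13, SE 0.046, adjusted p = 0.0452), and the dimmer gave -0.13 without passing (adjusted p = 0.401). The catalytic subunits were not called: the iron-sulfur subunit Sdhb had -0.085 (adjusted p = 0.0729), and the flavoprotein Sdha had -0.035 and 0.013 on its probe sets (adjusted p = 0.545 and 0.807).

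In complex III, Uqcr10, a small subunit at the membrane, read 302, 341 and 456 in midbrain against 278, 437 and 533 in medulla on its dimmest probe set (-0.28, SE 0.057, adjusted p = 0.000495). The arrays KO sham midbrain replicate 4, at 456, and medulla replicate 3, at 278, gave the extremes that made the ranges overlap most, and midbrain was lower in 15 of 16 animals by either numbering. The other Uqcr10 probe sets had -0.093 and -0.058 (adjusted p = 0.104 and 0.359). Uqcrfs1, the Rieske iron-sulfur protein that carries electrons to cytochrome c1, was called (-0.098, SE 0.033, adjusted p = 0.0334). The core proteins, which come from a family of peptidases, were not: Uqcrc1 had 0.0037 (adjusted p = 0.953), and Uqcrc2 had -0.062 and -0.011 (adjusted p = 0.378 and 0.912).

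Subunit c of complex V, which forms the rotating ring through which protons pass, is encoded by Atp5g1, Atp5g2 and Atp5g3 as the same mature protein. Atp5g1 read 971, 1267 and 1484 in midbrain against 1316, 1535 and 1725 in medulla. Midbrain was lower in 16 of 16 animals although the ranges overlapped, and the difference was -0.28 (SE 0.043, adjusted p = 1.24e-05), a fold of 1.22. Atp5g3 was called with a smaller difference (-0.078, SE 0.025, adjusted p = 0.0267), and Atp5g2 had -0.016 on its bright and -0.013 on its dim probe set (adjusted p = 0.797 and 0.938). Of the catalytic head, the gamma subunit Atp5c1, which turns with the ring, was called on its bright probe set (-0.11, SE 0.031, adjusted p = 0.012). The alpha subunit Atp5a1 had -0.074, -0.072 and -0.17 on 3 probe sets (adjusted p = 0.088, 0.193 and 0.554), and the beta subunit Atp5b had -0.044 (adjusted p = 0.358).

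Complex IV was the most varied. Cox5a, a small subunit on the matrix side, read 3096, 3453 and 3625 in midbrain against 3619, 3803 and 4026 in medulla. The ranges met only at their ends, and midbrain was lower in 16 of 16 animals (-0.15, SE 0.026, adjusted p = 6.35e-05). Its other probe sets had -0.097 and -0.082 (adjusted p = 0.145 and 0.219).

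Several complex IV subunits exist as a broadly expressed form and a form known from heart and skeletal muscle, lung or testis. The 3 muscle forms gave the largest differences of the complex, in opposite directions, on dim probe sets. Cox8b read 15.7, 28.2 and 85.03 in midbrain against 17.6, 57.6 and 82.2 in medulla (-0.63, SE 0.12, adjusted p = 0.000198), and Cox7a1 read 57.2, 76.1 and 87.4 in midbrain against 71.1, 93.7 and 110 in medulla (-0.30, SE 0.053, adjusted p = 9.06e-05). Cox8b was lower in midbrain in 15 of 16 animals and Cox7a1 in 14 (14 and 15 by title number). Cox6a2 read 28.0, 60.1 and 82.3 in midbrain against 27.4, 43.4 and 87.3 in medulla, higher in midbrain in 14 of 16 animals, or 13 by title number (0.30, SE 0.11, adjusted p = 0.0499). That call did not hold widely: it was lost in 30 of 47 alternative fits, 22 of which each left out 1 array.

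**Figure D2:**
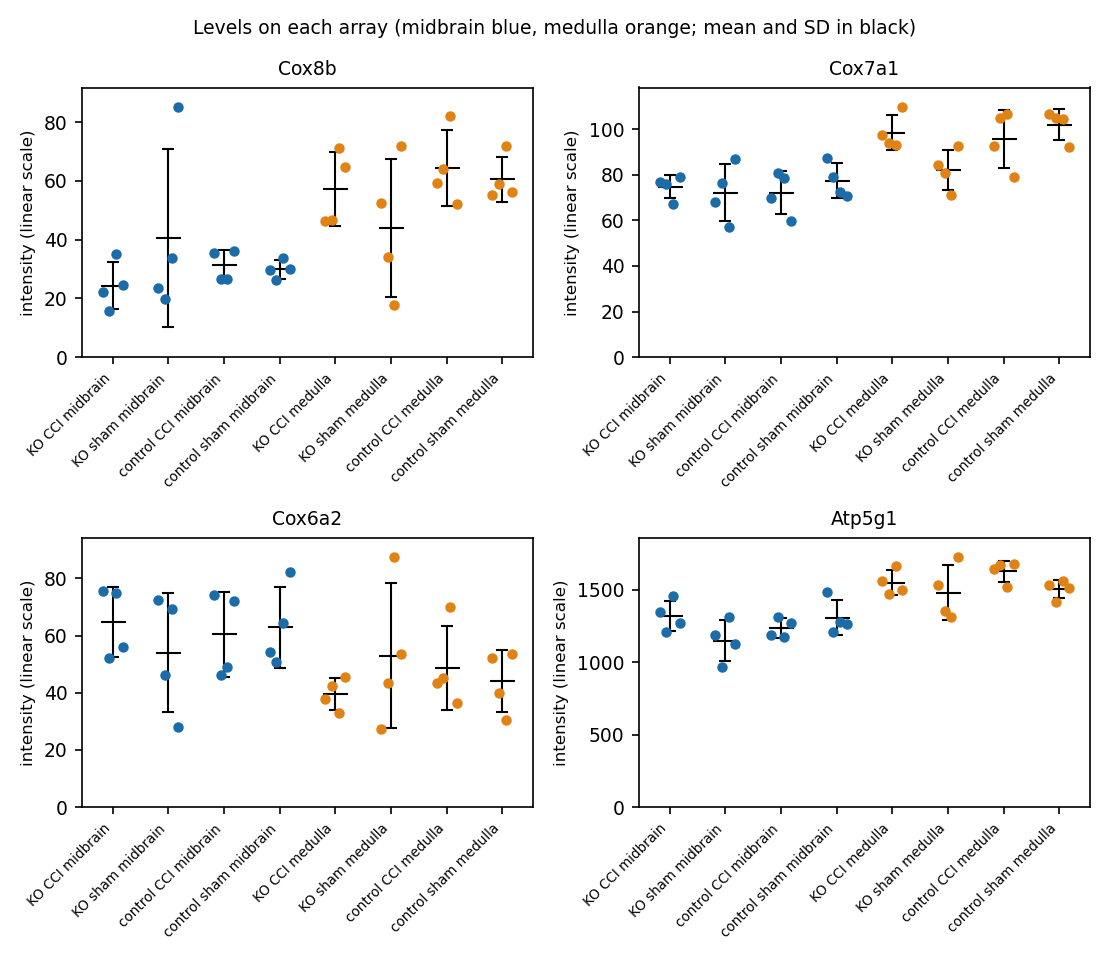
Deposited intensity (vertical axes, linear, from 0) on each array in the 8 groups (horizontal axes, midbrain left of medulla), with group mean and SD in black (n = 4). Cox8b, Cox7a1 and Atp5g1 are lower and Cox6a2 is higher on most midbrain arrays, and KO sham midbrain replicate 4 gives the highest Cox8b value, 85.03.

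For Cox8b and Cox6a2 the exceptions included the arrays KO sham midbrain replicate 4 and medulla replicate 3, 1 animal by the array numbers. They read 85.03 and 17.6 for Cox8b, where the other 15 midbrain arrays lay at 15.7 to 36.2, and 28.0 and 87.3 for Cox6a2. Markers of dissected tissue kept to their region on both arrays. The choroid plexus markers moved with region as well, and 3 of 3 were lower in midbrain. Their sum ran from 223 to 5278 in midbrain against 974 to 10264 in medulla, with KO sham midbrain replicate 4 at 5278. On KO sham medulla replicate 3, which had the lowest Cox8b value of the medulla, the sum was 6964. Ttr, Folr1 and Kl were above 0 on every array, and the part of choroid plexus in the Cox8b difference was not tested. Of 8 skeletal muscle markers none was called, and their sum ran from 188 to 322 in midbrain against 164 to 338 in medulla. Myl1, Myh4 and Tnnt3 were at or below 0 on 3, 2 and 5 arrays.

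The broad forms of the same subunits moved little. Cox7a2 was called lower on both probe sets (-0.085 and -0.079, adjusted p = 0.0226 and 0.0354), Cox6a1 on 1 of 2 (-0.10, adjusted p = 0.0306) and Cox6b1 on 1 of 2 (-0.13, adjusted p = 0.00201). Cox8a had -0.029 and -0.027 on its bright probe sets (adjusted p = 0.711 and 0.712), and Cox4i1, the main form of the largest nuclear-encoded subunit, had -0.0067 (adjusted p = 0.899). Cox4i2, its lung and hypoxia form, had 0.088 (adjusted p = 0.495). The testis forms Cox6b2 and Cox8c had 0.17 and -0.080 (adjusted p = 0.511 and 0.584). Cox7a2l, which helps join complexes III and IV, had -0.092, -0.039 and 0.0063 (adjusted p = 0.196, 0.487 and 0.939). Ndufa4l2 was not analysed here.

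The region difference was seen within animals. The array numbers in the descriptions put 1 midbrain and 1 medulla array with each animal, and the median over the 160 members was below 0 in 15 of 16 animals. Pairing by title number instead, an alternative chosen after the data were seen, also gave 15 of 16, and the KO sham pair of medulla replicate 3 and midbrain replicate 3 was then the one above 0, at 0.067. Called-lower members were lower in a median of 15 animals and at least 13, and 9 of the 46 were lower in all 16 (a median of 15, at least 12, and 10 of the 46 by title number). The 46 were called on these same arrays, so their counts of animals are a description and no further evidence. Animal medians averaged -0.098 ± 0.017 in KO CCI, -0.038 ± 0.10 in KO sham, -0.063 ± 0.023 in control CCI and -0.092 ± 0.021 in control sham mice (log2, SD, n = 4 each). The wide SD of KO sham mice came with the animal of medulla replicate 3 and midbrain replicate 4, the only one above 0, at 0.091. The KO sham animal of replicate 2, whose midbrain array has the high Actb ratio, was nearest to 0 of the others, at -0.0027. Without the arrays KO sham medulla replicate 3 and midbrain replicate 4, 71 members were called, 70 lower and 1 higher, an alternative chosen after the data were seen. The array code of the descriptions may mark a batch: within the lower code 6 members were called and within the higher code 11, all of them lower, from 14 and 16 arrays, and the median log2 difference was -0.080 and -0.060. Of 9 members called lower above and followed within both codes, Atp5g1 and Cox7a1 were called in each. The 9 were chosen from the fit that holds the same arrays, so their signs within each code are no independent check. Uqcr10 and Cox8b were called in the lower code only (adjusted p = 0.245 and 0.135 in the higher), and Ndufa12, Ndufa10 and Ndufa4 in the higher code only (0.0636, 0.229 and 0.108 in the lower). Cox5a and Sdhc were called in neither (0.141 and 0.267 in the lower, 0.0576 and 0.0587 in the higher), and all 9 differences were negative within both. Cox6a2 was called in neither.

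**Figure D3:**
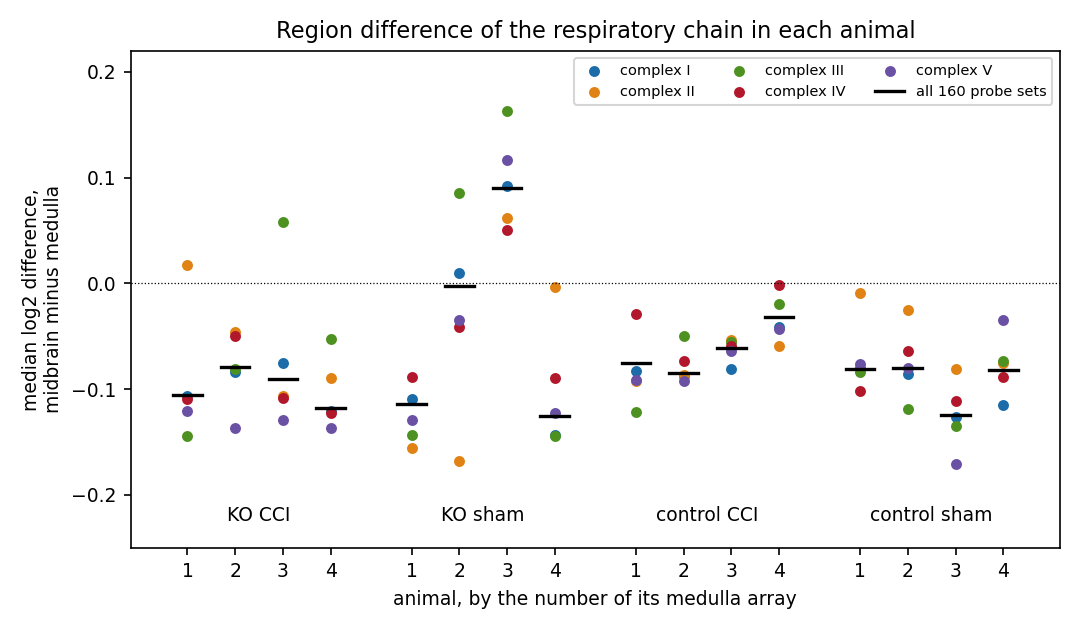
Median log2 difference, midbrain minus medulla, over the members of each complex (coloured points) and over all 160 (black bars) in each of the 16 animals, grouped as KO CCI, KO sham, control CCI and control sham. The bars lie below 0 except for the KO sham animal numbered 3 by its medulla array, at 0.091.

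Other genes of energy metabolism were read from lists with 1 probe set per gene. In the citric acid cycle and pyruvate dehydrogenase list, which feeds the chain with NADH and succinate, 6 of 15 genes (40%) were called lower in midbrain, against 11% of all probe sets and 17.1% at the members' level, and all 15 had a negative difference (median -0.099). Pdhb, a subunit of pyruvate dehydrogenase, averaged 1565 ± 104 in midbrain and 1819 ± 107 in medulla (SD, n = 16 each), a difference of -0.19 (SE 0.036, adjusted p = 0.000186). Dlst, the transferase of the oxoglutarate dehydrogenase complex, averaged 471 ± 19.4 and 526 ± 34.1 in the same order (-0.16, adjusted p = 0.000164). Citrate synthase, Cs, had -0.11 and did not pass (adjusted p = 0.139). Of mitochondrial carriers and channels 5 of 10 (50%) were lower, among them Slc25a4 and Slc25a5, which export ATP, and Ckmt1, the mitochondrial creatine kinase (-0.30, SE 0.047, adjusted p = 2.29e-05).

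Of 13 regulators of mitochondrial biogenesis 2 were called, both lower in midbrain, a share (15.4%) near the 11% of all probe sets. Ppargc1a, which encodes PGC-1alpha, averaged 334 ± 31.3 in midbrain and 405 ± 41.3 in medulla (-0.27, SE 0.042, adjusted p = 1.71e-05), and Esrra, the estrogen-related receptor alpha that it coactivates, 225 ± 27.3 in midbrain and 274 ± 19.2 in medulla (-0.27, SE 0.046, adjusted p = 7.06e-05; SD, n = 16 each). Nrf1, Gabpa and Tfam, the transcription factor of mitochondrial DNA, had -0.019, 0.048 and -0.016 (adjusted p = 0.876, 0.505 and 0.857). Of 6 other electron carriers and subunits 1 was lower, the electron transfer flavoprotein Etfa (-0.20, adjusted p = 0.000305), and 1 higher, the copper chaperone Cox17 (0.094, adjusted p = 0.0448). For so short a list these counts are near the 11% lower and 10.5% higher of all probe sets. Cytochrome c, Cycs, had -0.11 (adjusted p = 0.265). Of 17 further assembly factors Ecsit (-0.17) and Acad9 (-0.11) were lower (11.8%, near the 11% of all probe sets) and Uqcc2 (0.19) was higher.

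Cell type markers also differed between the regions. Of 8 neuronal markers 6 were lower in midbrain and 1, Syt1, was higher, where 11% of all probe sets were called lower and 10.5% higher. Their sum was 14773 to 19877 in midbrain against 22084 to 25695 in medulla. The 14773 came from KO sham midbrain replicate 2, the array with the high Actb ratio, and the next lowest midbrain sum was 18093. The neurofilament genes, which are high in large myelinated axons, fell furthest, with Nefh at -0.86 (SE 0.043, adjusted p = 4.38e-15). Of 6 oligodendrocyte markers 5 were lower (sum 19381 to 22522 in midbrain against 21617 to 25386 in medulla). Of 6 astrocyte markers 4 were lower and 1 higher (sum 4775 to 5165 in midbrain against 5750 to 7916 in medulla). The 7916 came from KO sham medulla replicate 3, and the next highest medulla sum was 6864. None of 6 microglial and none of 4 endothelial markers was called. Every marker of neurons, oligodendrocytes and astrocytes was above 0 on all arrays, and the part of cell composition in the respiratory chain difference was not tested.

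Loss of Cckbr left no respiratory chain member past the threshold. In medulla, KO against control averaged over both operations, 0 of 160 were called, against 0.053% of all probe sets. The median difference of the members was -0.019 (-0.0031 over all probe sets), and 3 members (1.88%, against 3.36% of all probe sets) had an unadjusted p under 0.05. The 95% interval lay within 0.5 log2 units (1.41-fold) for 156 members and within 0.25 (1.19-fold) for 133. In midbrain 0 of 160 were called, against 0.0309% of all probe sets. The median was -0.0016 (-0.0076 over all), and 5 members (3.12%, against 7.49% of all probe sets) had an unadjusted p under 0.05. Intervals lay within 0.5 for 156 and within 0.25 for 129. With trended robust variances 1 member was called in medulla, Ndufc2 (adjusted p = 0.0205).

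Ndufc2, an accessory subunit of the membrane arm of complex I, had the lowest p in both regions and the same direction on both probe sets. In medulla its brighter probe set read 2550, 2466, 2287 and 2386 in KO CCI and 2520, 2410, 2559 and 2556 in KO sham mice, against 2914, 3102, 2816 and 2763 in control CCI and 2855, 2726, 3005 and 2793 in control sham mice. All 8 KO arrays lay below all 8 control arrays. In midbrain it read 2373, 2229, 2332 and 2342 in KO CCI and 2193, 2356, 2256 and 2523 in KO sham mice, against 2619, 2768, 2687 and 2563 in control CCI and 2776, 2659, 2633 and 2533 in control sham mice. The genotypes again did not overlap. Ndufc2 was picked by its p, and the share of all probe sets with genotypes as fully apart was not counted. The log2 difference was -0.22 for medulla (SE 0.047, adjusted p = 0.277), and -0.24 to -0.20 over the alternative fits (adjusted p from 0.0205 to 1). For midbrain it was -0.17 (SE 0.045, adjusted p = 0.406), and -0.21 to -0.13 over the alternatives (adjusted p from 0.0675 to 1).

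The other Ndufc2 probe set read 1459 to 1878 in KO medulla against 2001 to 2258 in control medulla, without overlap. In midbrain it read 1524 to 1860 on KO arrays against 1854 to 2196 on control arrays, and 1 KO sham array overlapped the lowest control array. The fit gave it -0.25 for medulla (SE 0.060, adjusted p = 0.427) and -0.19 for midbrain (SE 0.048, adjusted p = 0.354).

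**Figure D4:**
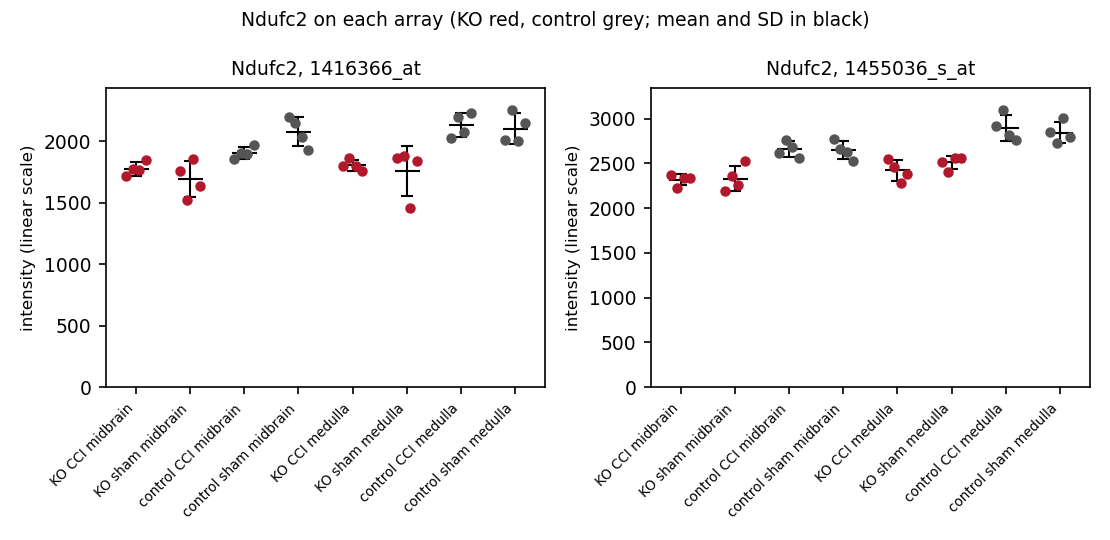
Deposited intensity (vertical axes, linear, from 0) of the Ndufc2 probe sets on each array of the 8 groups (horizontal axes), KO in red and control in grey, with mean and SD in black (n = 4). KO arrays lie below the control arrays of the same region on the brighter probe set (right), and on the dimmer probe set (left) the genotypes touch in midbrain only.

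Ndufc2 lies on chromosome 7, as does Cckbr, with 76 genes of the array's annotation counted from one to the other, out of 958 measured genes on that chromosome (RefSeq order, GRCm38.p6). Of the 10 member genes on chromosome 7 (16 probe sets) it is the nearest. The next, Uqcrc2 on the other side at 79 genes, had 0.015 and 0.038 in medulla and 0.077 and 0.0059 in midbrain, and Ndufab1, the mitochondrial acyl carrier protein at 92 genes, had 0.018 in medulla and 0.036 in midbrain on its bright probe set. None of these passed. Whether position or the chromosome around the targeted gene has a part in the Ndufc2 difference was not tested.

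The next member gene by p in medulla was Cox8a, on a probe set near background (-0.26, SE 0.10, adjusted p = 1), and in midbrain Sdhc. Sdhc read 701, 759, 657 and 695 in KO CCI midbrain and 679, 601, 663 and 650 in KO sham midbrain, against 737, 721, 746 and 834 in control CCI midbrain and 814, 791, 786 and 722 in control sham midbrain. KO arrays were lower, with overlap in 1 KO CCI array (-0.18, SE 0.047, adjusted p = 0.354). The difference between regions of the genotype effect had an unadjusted p of 0.0393 for Sdhc and an adjusted p of 1 (-0.16, SE 0.074). Over all members 0 of 160 were called in that test, against 0% of all probe sets. An unadjusted p under 0.05 was found for 3 members (1.88%, against 3.8% of all probe sets). The lowest p was that of Atp5k, a membrane subunit of ATP synthase (0.15, SE 0.066, adjusted p = 1), and then Sdhc's other probe set (-0.23, SE 0.10, adjusted p = 1).

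Within each operation the genotypes also gave 0 of 160 calls. In sham mice the share of all probe sets called was 0.0133% in medulla and in midbrain alike, and in CCI mice 0.00442% in medulla and 0.00884% in midbrain. In sham medulla the lowest p were those of Ndufc2 (-0.27 and -0.17, adjusted p = 0.997 each) and Cox7a1 (-0.27, adjusted p = 0.997). In sham midbrain they were Ndufc2 (-0.27, adjusted p = 0.371), Sdhc (-0.26, adjusted p = 0.371) and Ndufb7, a membrane-arm subunit of complex I (0.20, adjusted p = 0.52). In CCI medulla they were Ndufc2 (-0.26 and -0.24, adjusted p = 0.943 and 1) and Cox8a (-0.29, adjusted p = 1). In CCI midbrain they were the dim probe set of Atp5g2 (-0.53, adjusted p = 0.967), Ndufc2 (-0.19, adjusted p = 0.967) and Ndufs7 (-0.12, adjusted p = 0.967). Members with an unadjusted p under 0.05 numbered 5 and 16 in sham medulla and midbrain, and 2 and 2 in CCI medulla and midbrain. As shares of the members these are 3.12%, 10%, 1.25% and 1.25%, against 3.81%, 8.47%, 2.44% and 4.96% of all probe sets, so none stood well above the background.

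Nerve injury changed no member past the threshold in either region. In the 4 comparisons of CCI with sham mice 0 of 160 members and 0% of all probe sets were called by limma. In medulla of KO mice the median difference was 0.028, with 1 member, Cox7a1, at an unadjusted p under 0.05. It read 97.4, 94.1, 93.4 and 110 in KO CCI against 84.5, 80.7, 71.1 and 92.5 in KO sham medulla. The fit gave it 0.22 (SE 0.089, adjusted p = 0.993). The next were dim probe sets of Ndufab1 (-0.34) and Atp5g2 (0.32, adjusted p = 0.993 each). In medulla of control mice the median was -0.0040, with 1 such member, and the lowest p belonged to 2 dim probe sets of Uqcrq, a ubiquinone-binding subunit of complex III (-0.33 and -0.32), and to Ndufb1 (-0.20, adjusted p = 1 each). In midbrain of KO mice the median was -0.043, with 5 such members, led by Cox4i2 (-0.38), Atp5d (-0.14) and Ndufs8 (-0.18, adjusted p = 0.601 each). In midbrain of control mice it was 0.022, with 1 such member, led by Ndufs8 (0.20), Atp5d (0.13) and Ndufa13 (0.11, adjusted p = 1 each). In medulla such members were 0.625% of the 160 in KO mice and 0.625% in control mice, against 4.24% and 2.8% of all probe sets. In midbrain they were 3.12% and 0.625%, against 8.23% and 3%, so all 4 shares lay below the background.

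For 139 to 147 of the 160 members the 95% interval of the injury difference lay within 0.5 log2 units. The array with the low members' median, KO sham medulla replicate 3, and that with the high Actb ratio, KO sham midbrain replicate 2, both belong to the sham side of the KO comparison.

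**Figure D5:**
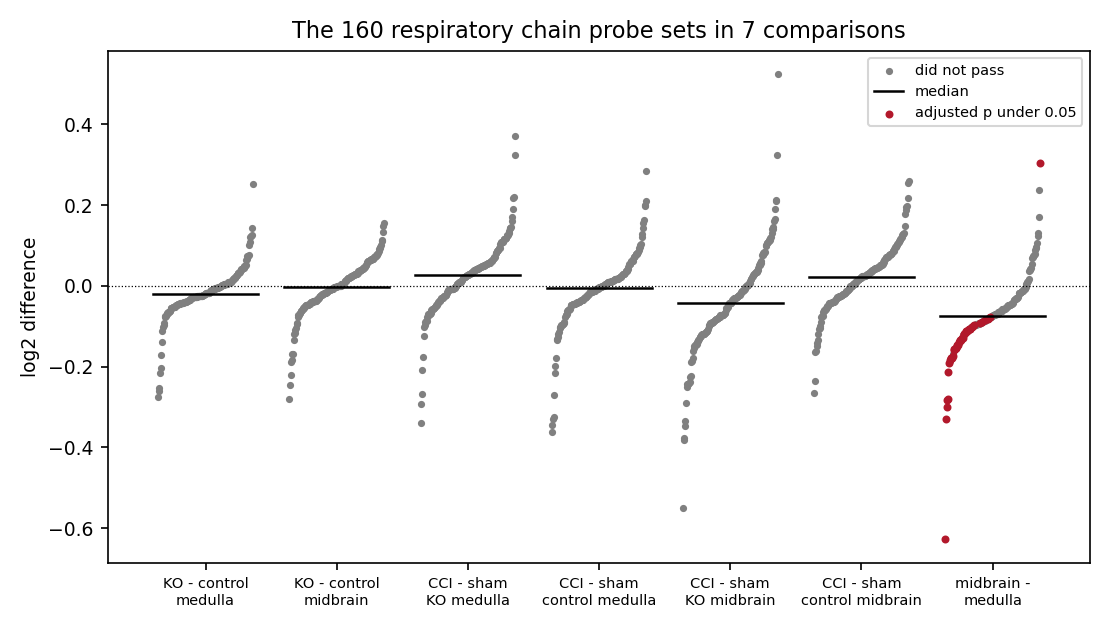
Log2 differences (vertical axis) of the 160 probe sets, ordered by value, in KO minus control, CCI minus sham and midbrain minus medulla comparisons (horizontal axis), with the median as a bar. Points that passed the adjusted p of 0.05 appear in the region comparison alone.

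The injury effect was not detectably different between genotypes: 0 of 160 members and 0% of all probe sets were called for the genotype by CCI interaction in medulla and in midbrain, where the interval lay within 0.5 log2 units for 135 and 124 members. In medulla 3 members (1.88%, against 2.67% of all probe sets) had an unadjusted p under 0.05. They were Cox7a1 (0.32), Cox6a1 (0.24) and a dim probe set of Uqcrq (0.48, adjusted p = 1 each). In midbrain there were 8 (5%, against 5.48% of all probe sets), all negative, with a median over all members of -0.065 (-0.0060 over all probe sets). The lowest p belonged to the delta subunit of ATP synthase, Atp5d (-0.26, SE 0.087), and to 2 probe sets of Ndufs8 (-0.32, SE 0.11, and -0.27, SE 0.10, adjusted p = 0.822 each).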

How the data were processed

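Total RNA of midbrain and medulla was labelled from 4 ug per sample and hybridised to Affymetrix mouse arrays, per the labels' protocols. The authors deposited 1 intensity per probe set and array on a linear scale, with 2.15% of values at or below 0 and nearly equal array medians. The sources used here do not name the scaling software. Negative intensities were set to 0, 16 was added, log2 was taken and arrays were quantile normalized. The 64 control probe sets were left out. limma 3.58.1 (R 4.3.3) fitted group means to the 16 arrays of a region, or to all 32 arrays for region comparisons, and p-values were adjusted over 22626 probe sets. The steps were tested on simulated data. The number of arrays limits precision. Within a region, p-values measure the spread between animals of a group. The reported region fits held no animal term, so their p-values measure the spread between arrays of a group. Animals were paired across regions by consecutive array numbers, and the residuals within an animal had a mean correlation of 0.171 (-0.0497 to 0.363). Members and lists were chosen with earlier results of these data known. Named were called members by absolute difference (up to 15), the 3 of lowest p where none was called, and the isoform, core and catalytic subunits. Alternatives covered normalization, pseudocount (1 or 64), dim probe sets, variance model, weights, array code, blocks, probe sets per gene and omitted arrays. Of the listed genes 20 had no probe set with 1 symbol and were not used.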

Additional observations from a re-analysis of the deposited data

Results flagged for a closer look

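Of 144 sets of 4 arrays examined (12 probe sets and 6 medians in 8 groups), 6 held 1 array far from the other 3, where chance gives about 1 in 20. For Ndufc2, KO sham medulla replicate 3 read 1459 on the dimmer probe set, below 1842 to 1878 on the other arrays of the group. For Cox7a1, control sham medulla replicate 4 read 92.3, below 104 to 107. Ndufa4 read 3342 on KO CCI medulla replicate 3, above 3064 to 3095, and 3757 on control sham medulla replicate 1, above 2984 to 3086. For the members of complex III, the median deviation from the medulla means was 0.029 on KO CCI medulla replicate 4, above 0.0013 to 0.0028. For complex V it was -0.027 on control sham medulla replicate 4, below 0.0065 to 0.010; that array also had the lowest medullary sum of choroid plexus markers, 974.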

How the results depend on the processing

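Of 450 alternative fits of the 14 comparisons, 445 gave a count of called members within 1.5 times the reported one, and of 403 fits of the 13 comparisons without a call 402 had none. The exception was the genotype effect in medulla with trended robust variances, with 1 call. For midbrain against medulla the 47 calls became 30 with 1 probe set per gene (29 lower and 1 higher of 87, fewer probe sets tested), 6 within the lower and 11 within the higher array code (fewer arrays) and 71 without the KO sham animal of medulla replicate 3 and midbrain replicate 4 (the cause was not tested). Leaving out 1 array at a time gave 40 to 64, the highest without KO sham medulla replicate 3. The animal as a replicate block gave 54 calls, 53 lower and 1 higher, and the block changed no other count. The title number as a block left every comparison within a region at 0. Residuals of arrays with the same title number correlated at 0.054 on average (-0.174 to 0.247), against -0.0179 for other title numbers. Of the same-number pairs 33.3% exceeded 0.1, and whether they share more than a number was not tested. The members' median region difference stayed between -0.090 and -0.060 over settings and kept its sign under median centring (-0.086). Atp5g1 and Cox7a1 passed in 47 of 47 alternative fits, and Cox6a2 lost its call in 30 of 47. The 4 arrays of a group limit what small differences could be called. Pairing animals by title number left 15 of 16 animals with a members' median below 0.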

Other observations

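Glycolysis, which makes pyruvate and ATP in the cytosol, did not share one direction between the regions. Of 14 measured genes, 4 were called lower and 1 higher in midbrain, 28.6% and 7.14% of the list against 11% and 10.5% of all probe sets, with a median log2 difference of -0.016. The lactate dehydrogenase genes went opposite ways: Ldha, whose subunit predominates in muscle, averaged 1741 ± 111 in midbrain and 1488 ± 105 in medulla (0.25, SE 0.040, adjusted p = 2.21e-05), and Ldhb, whose subunit predominates in heart, averaged 2930 ± 154 in midbrain and 3346 ± 183 in medulla (-0.18, SE 0.031, adjusted p = 5.53e-05; SD, n = 16 each). The phosphofructokinase gene Pfkp (-0.19), the aldolase gene Aldoc (-0.13) and the pyruvate kinase gene Pkm (-0.10) were the other lower genes (adjusted p = 2.33e-05, 0.000681 and 0.0233). No gene of the related lists was called for genotype, injury or their interaction in either region.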
